A study of Mus musculus with 6 samples.

Results

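The alpha and beta tubulin isotypes of C2C12 cells were compared between myoblasts (D0) and myotubes (D5). The isotypes were the 10 genes *Tuba1a*, *Tuba1b*, *Tuba1c*, *Tuba4a*, *Tubb2a*, *Tubb2b*, *Tubb3*, *Tubb4b*, *Tubb5* and *Tubb6*. They were picked by gene symbol from the 54525 gene rows of each count file. C2C12 is an established mouse myoblast line that fuses into multinucleated myotubes when serum is lowered. The study's methods give fetal bovine serum for growth and a lower level of horse serum for differentiation. Medium therefore changed together with day. RNA-seq libraries were made from 3 samples at D0 and 3 samples after 5 days of differentiation. All 6 libraries carry the genotype WT and no treatment, and the labels give the cell type as mouse muscle myoblasts for both days. The samples come from 1 cell line, so p-values describe the spread between samples of that line.

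Microtubules are polymers of alpha and beta tubulin heterodimers. Mammals encode several isotypes of each, which are nearly identical over most of their length and differ mainly in the acidic C-terminal tail that carries polyglutamylation, detyrosination and other modifications. Dividing cells use microtubules to build the spindle. In differentiating muscle the array is rebuilt along the long axis of the fibre and nucleated from the nuclear envelope.

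The tails are shown as coding sequence because they are the part in which the isotypes differ most. Sequences are the last 60 coding bases before the stop codon, 5′ to 3′, from the GENCODE transcripts of GRCm38. They are shown for *Tuba4a* and 5 beta genes. In *Tuba4a* the last codon, a glutamate codon, is in capitals.
Tuba4a: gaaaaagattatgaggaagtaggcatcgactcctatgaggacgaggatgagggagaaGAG
In the beta genes the glutamate codons GAA and GAG are in capitals.
Tubb2a: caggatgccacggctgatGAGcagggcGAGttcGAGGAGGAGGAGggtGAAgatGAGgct
Tubb2b: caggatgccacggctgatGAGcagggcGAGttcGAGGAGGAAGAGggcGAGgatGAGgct
Tubb3: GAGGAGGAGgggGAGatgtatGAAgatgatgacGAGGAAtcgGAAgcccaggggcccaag
Tubb4b: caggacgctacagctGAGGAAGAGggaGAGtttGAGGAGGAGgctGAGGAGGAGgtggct
Tubb5: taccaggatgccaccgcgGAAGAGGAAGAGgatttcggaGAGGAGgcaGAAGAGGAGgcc
Identity over the whole coding sequence ranged from 84.8% to 98.3% among the 6 alpha pairs and from 80.2% to 96.5% among the 15 beta pairs. Over the last 60 coding bases it was as low as 40.0% among the beta pairs, while *Tubb2a* and *Tubb2b* were 95.0% identical there.

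The near-identity bears on how reads were assigned. Of all 50-base stretches in its transcripts, *Tuba1a* shared 72.9% with another gene, *Tuba1b* 66.7% and *Tuba1c* 52.7%. *Tubb2a* shared 49.6% and *Tubb2b* 36.9%, while *Tubb4b* shared 37.8%, most of it with the pseudogene *Tubb4b-ps1*. *Tubb3* and *Tubb6* shared none, *Tubb5* 0.0892% and *Tuba4a* 0.807%. The sources used here do not give how reads with several matches were counted, so the split within *Tuba1a*, *Tuba1b* and *Tuba1c* and within *Tubb2a* and *Tubb2b* is uncertain. Summed values are given beside the single ones. Summing cannot recover reads that were dropped or given to genes outside the isotypes. With other isotypes alone, *Tuba1a* shared 52.0% of its stretches and *Tuba1b* 58.4%.

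The libraries held 36555048 to 40895840 gene counts at D0 and 25449759 to 25811300 at D5. Levels are therefore given as counts per 1000000 (CPM) after TMM scaling, and as the length-scaled measure TPM where genes are compared with each other. The label of the cells was checked against muscle markers. *Myh3*, the embryonic myosin heavy chain, stood at 1.69 ± 0.361 CPM (SD, n = 3) at D0 and 4698 ± 174 at D5, and 7 of 8 muscle markers rose. The exception was the myoblast transcription factor *Myod1*, which fell by 0.71 on the log2 scale.

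Tubulin mRNA made up a smaller part of the libraries at D5. The 10 isotypes took 0.427% to 0.441% of all gene counts at D0 and 0.206% to 0.212% at D5. Per length, their sum was 6431 ± 79.1 TPM at D0 and 3124 ± 29.98 TPM at D5 (SD, n = 3). The alpha sum was 2819 ± 55.5 TPM at D0 and 1310 ± 18.9 TPM at D5. The beta sum was 3611 ± 54.1 TPM at D0 and 1814 ± 16.1 TPM at D5. The ratio of alpha to beta in TPM was 0.781 ± 0.0190 at D0 and 0.722 ± 0.00938 at D5, with no overlap between the groups, but its direction depended on the length used. With coding length the ratio was 0.579 ± 0.0152 at D0 and 0.642 ± 0.00700 at D5, again with no overlap. With the number of 50-base stretches found in no other gene as length it was 2.00 ± 0.0434 at D0 and 1.56 ± 0.0180 at D5. In bulk RNA, fewer cells of a kind and less mRNA per cell cannot be told apart.

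All 10 isotypes passed edgeR's quasi-likelihood test at an adjusted p of 0.05, with 3 higher and 7 lower at D5. The counts moved with the scaling, to 1 higher and 8 lower without scaling and 0 higher and 6 lower with ERCC spike-in scaling. Here and below, values without scaling include the lower total of gene counts in the D5 libraries. The sources used here do not state whether equal spike-in amounts were added to each library, which bears on every ERCC-scaled value below. Most genes passed the test with TMM scaling: of 16290 genes tested, 82.9% were called, 42.2% higher and 40.8% lower. The groups of libraries did not overlap for any of the 10 isotypes, nor for 83.3% of all genes tested, 42.2% with the D5 libraries above and 41.1% below. The median log2 fold change of the isotypes was -0.89, beside 0.0022 over all genes tested. Of the 10, 7 had an absolute log2 fold change above the median absolute value of all genes, which was 0.67.

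**Figure D1:**
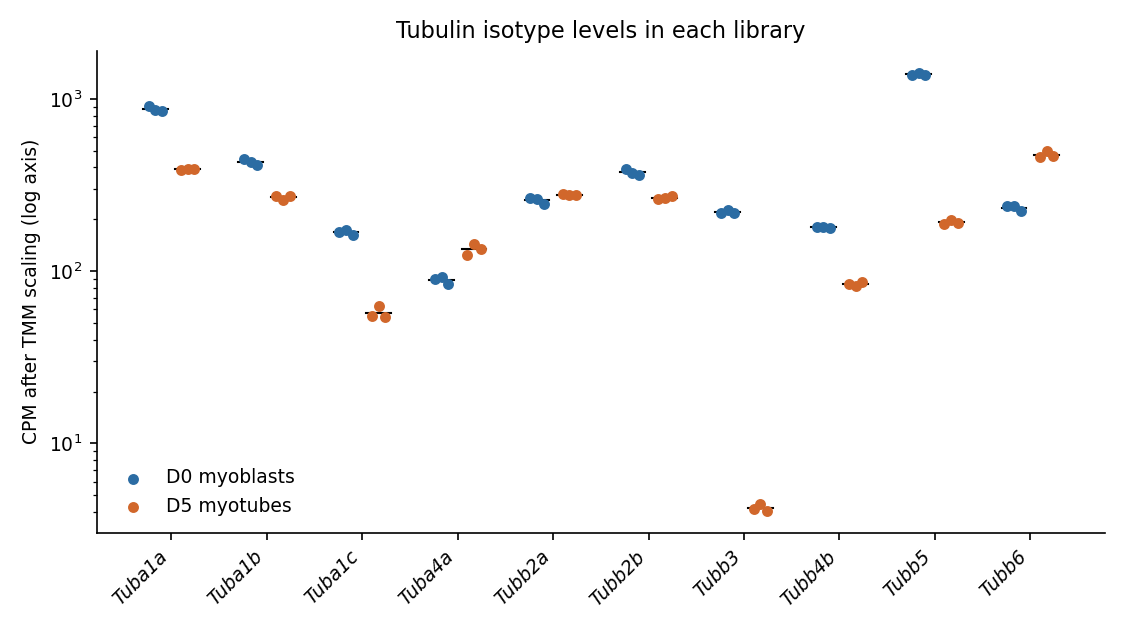
CPM after TMM scaling (log axis) of each isotype in the 3 D0 libraries (blue) and the 3 D5 libraries (orange), with the mean as a black line. *Tubb3* drops from about 220 to 4.22 CPM and *Tubb5* from 1397 to 193 CPM, while *Tubb6*, *Tuba4a* and, by a small margin, *Tubb2a* sit higher at D5.

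Among the alpha tubulins, the *Tuba1* genes fell and *Tuba4a* rose. *Tuba1a* (ENSMUSG00000072235, chr15:98949837-98953703, minus strand) is the main alpha isotype of developing neurons and is also made by many dividing cells. It stood at 913, 868 and 852 CPM in the D0 libraries and at 387, 394 and 394 CPM in the D5 libraries. All D5 libraries lay below all D0 libraries, and *Tuba1a* was 2.24-fold lower at D5 (log2 fold change -1.16, SE 0.033, adjusted p = 5.5e-24 by edgeR's quasi-likelihood test with Benjamini-Hochberg adjustment). Per exonic length it was the most abundant of the 10 isotypes on both days, at 1685 ± 34.1 TPM at D0 and 674 ± 7.21 TPM at D5. With coding length it came second on both days, after *Tubb5* at D0 and *Tubb6* at D5. In TPM per exonic length it went from rank 52 to rank 148 among the 54409 genes with a length.

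*Tuba1b* (chr15:98931425-98934565, minus strand) encodes a widely expressed alpha isotype whose gene lies next to *Tuba1a*. Its values were 448, 432 and 413 CPM at D0 and 274, 258 and 274 CPM at D5. The groups were apart, with a fall of 0.68 on the log2 scale (SE 0.035). *Tuba1c* (chr15:99029891-99038110, plus strand), the third gene of the cluster, went from 170, 174 and 162 CPM at D0 to 54.8, 62.7 and 54.0 CPM at D5. This was the steepest change among the alpha genes (log2 fold change -1.56, SE 0.044), and the D5 libraries reached 33.9% of the D0 mean. Summing the 3 genes in each library gave a log2 fold change of -1.04 (SE 0.033, adjusted p = 8.5e-23 by edgeR's quasi-likelihood test with Benjamini-Hochberg adjustment), which does not depend on how reads were split among them. Exons of *Tuba1a* and *Tuba1b* overlap on the same strand with *Gm49450*, over 26.2% and 22.7% of their length. *Gm49450* held 10 to 12 counts per library at D0 and 0 to 2 at D5. How reads over overlapping genes were counted is not given, so these low counts do not show how many reads the overlap cost.

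*Tuba4a* (ENSMUSG00000026202, chr1:75214228-75219865, minus strand) is the alpha gene whose product lacks the encoded C-terminal tyrosine, and it is known from muscle, heart and brain. Its levels were 90.6, 92.2 and 84.2 CPM at D0 and 124, 144 and 135 CPM at D5. Every D5 library lay above every D0 library, a 1.51-fold rise (log2 fold change 0.60, SE 0.043, adjusted p = 1.2e-13 by edgeR's quasi-likelihood test with Benjamini-Hochberg adjustment). Without scaling for library size the value was -0.09, and scaled to the ERCC spike-ins it was 0.06, neither past the threshold. Its exons overlap those of *Stk16* on the opposite strand over 37.3% of their length, and without a stated strand setting the reads of the pair cannot be told apart. *Stk16* held 39.3 ± 0.564 CPM at D0 and 40.0 ± 1.90 CPM at D5 and was not called (log2 fold change 0.02, adjusted p = 0.63 by edgeR's test with Benjamini-Hochberg adjustment).

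Among the beta tubulins, *Tubb3* and *Tubb5* fell the most and *Tubb6* rose. *Tubb3* (ENSMUSG00000062380, chr8:123411424-123422015, plus strand) is the beta isotype used as a marker of neurons and is also found in some dividing and tumour cells. It held 8129, 9479 and 8744 counts at D0 and 104, 110 and 101 counts at D5, which is 217, 225 and 217 CPM against 4.14, 4.46 and 4.06 CPM. The D5 libraries kept 1.92% of the D0 level, a 52.1-fold fall (log2 fold change -5.70, SE 0.054, adjusted p = 2.7e-36 by edgeR's quasi-likelihood test with Benjamini-Hochberg adjustment). Only 0.381% of the genes tested had a lower log2 fold change. In TPM, *Tubb3* went from rank 310 to rank 9813.

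Since *Tubb3* is widely read as a neuronal gene, neuron markers were examined beside it. Of 10 such genes, *Rbfox3* and *Elavl4* held no count in any library, which allows at most 3 counts in each, and *Snap25* held 1 count in all. Of the 5 that could be tested, 4 fell and 1 rose, and the summed level of the 10 was 129 to 142 CPM at D0 and 50.4 to 54.9 CPM at D5. The neurofilament gene *Nefl* went from 45.5 ± 2.79 to 0.669 ± 0.0930 CPM and the growth cone gene *Gap43* from 25.1 ± 2.35 to 0.536 ± 0.116 CPM. *Stmn2*, a neuronal microtubule destabilizer, moved the other way, from 3.56 ± 0.460 to 33.3 ± 2.28 CPM. The part of these genes in the fall of *Tubb3* was not tested.

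*Tubb5* (ENSMUSG00000001525, chr17:35833921-35838306, minus strand) encodes the main beta tubulin of proliferating cells. It had the highest CPM of the isotypes at D0, with 1381, 1422 and 1386 CPM, and 189, 199 and 190 CPM at D5. The groups were far apart, with a 7.25-fold fall (log2 fold change -2.86, SE 0.035, adjusted p = 1.5e-33 by edgeR's quasi-likelihood test with Benjamini-Hochberg adjustment). Only 3.54% of genes tested had a lower log2 fold change. *Tubb4b* (chr2:25222160-25224702, minus strand), a beta isotype used in many cells and in the axonemes of cilia, went from 181, 179 and 179 CPM to 84.3, 81.7 and 86.8 CPM. It fell by 1.09 on the log2 scale (SE 0.035), again without overlap.

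Proliferation markers moved in the same direction as these genes. All 8 of them fell, among them *Mki67* (log2 fold change -5.11) and *Top2a* (-4.91), and their summed level was 1968 to 1982 CPM at D0 and 104 to 114 CPM at D5. The least changed of the 8, the replication clamp *Pcna*, fell by 1.87 on the log2 scale. Their part in the lower levels of the tubulins was not tested.

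*Tubb6* (ENSMUSG00000001473, chromosome 18, plus strand) is a divergent beta isotype known from regenerating and dystrophic muscle fibres. It was the isotype with the largest rise, from 240, 240 and 223 CPM at D0 to 458, 497 and 467 CPM at D5. No D5 library came near the D0 range, and the level was 2.03-fold higher (log2 fold change 1.02, SE 0.036, adjusted p = 1.6e-21 by edgeR's quasi-likelihood test with Benjamini-Hochberg adjustment). Without scaling it was still called higher (log2 fold change 0.34), whereas scaled to the ERCC spike-ins it was 0.47 with an adjusted p of 0.49 by the same edgeR test.

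The *Tubb2* pair lies on chromosome 13 and is abundant in brain. *Tubb2a* (chr13:34074274-34078007, minus strand) stood at 266, 263 and 245 CPM at D0 and 282, 278 and 276 CPM at D5. Its libraries did not overlap, but the difference was small (log2 fold change 0.11, SE 0.034, adjusted p = 0.0037 by edgeR's quasi-likelihood test with Benjamini-Hochberg adjustment). The call was lost without D0 replicate 3, the lowest library (0.06, adjusted p = 0.099 by the same edgeR test). It was also lost with total-count scaling (0.027) and with no filter on low counts (0.058), and in TPM the D5 mean was below the D0 mean, at 537 ± 15.3 against 555 ± 18.3. Its direction turned without scaling (-0.57) and, with no call, with ERCC scaling (-0.45).

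*Tubb2b* (chr13:34126748-34130466, minus strand) went from 391, 372 and 362 CPM to 262, 267 and 272 CPM, a fall of 0.49 on the log2 scale (SE 0.034) with no overlap. Its adjusted p was 3e-14 by edgeR's test with Benjamini-Hochberg adjustment. Counted together, *Tubb2a* and *Tubb2b* gave a log2 fold change of -0.21 (SE 0.033, adjusted p = 7.6e-07 by edgeR's quasi-likelihood test with Benjamini-Hochberg adjustment). With ERCC scaling neither *Tubb2b* (-1.06, adjusted p = 0.1) nor the sum (-0.78, adjusted p = 0.24) was called by the same edgeR test. With TMM scaling the sum thus fell, whereas *Tubb2a* alone was slightly higher.

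**Figure D2:**
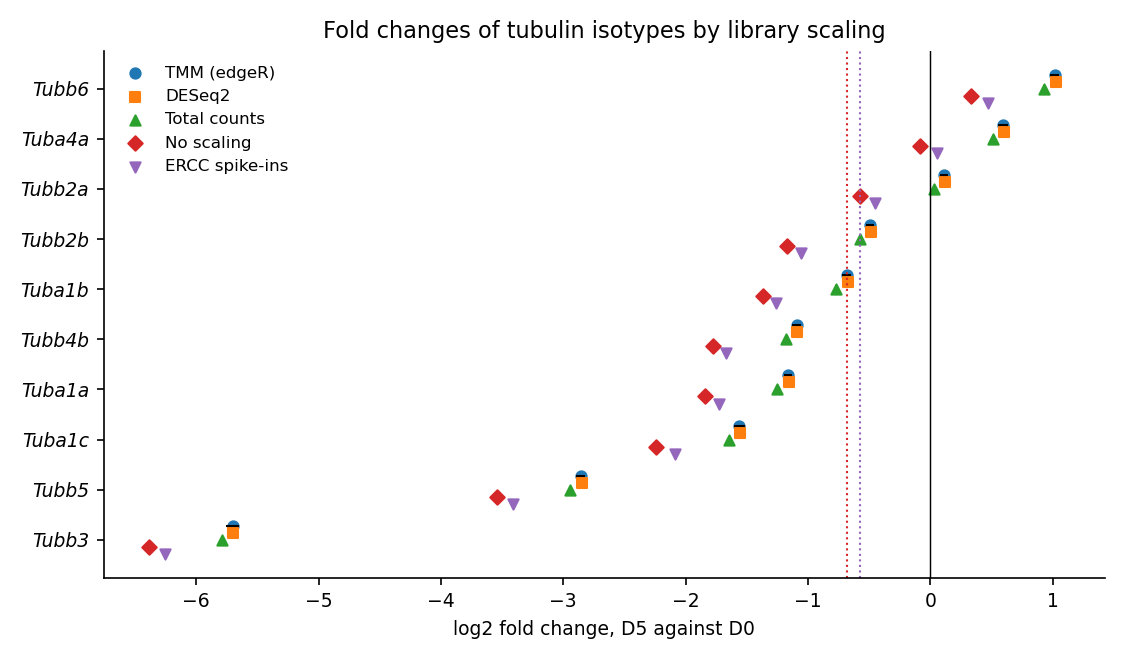
Log2 fold change (D5 against D0) of each isotype under 5 library scalings, with the SE as a bar on the TMM value. Red and purple dotted lines mark the median of all genes without scaling (-0.68) and with ERCC spike-in scaling (-0.58). The isotypes keep their order and move with that median, because rescaling libraries shifts all genes nearly alike.

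The fold changes moved with the scaling as a block. The median of all genes tested was 0.0022 with TMM, -0.68 with no scaling and -0.58 with ERCC scaling. Relative to that median, no isotype differed from its TMM value by more than 0.00146 without scaling and 0.0555 with ERCC scaling. Rescaling libraries shifts the fold changes of all genes nearly alike, so this follows from the method and is not a trait of the isotypes. *Tuba1a*, *Tuba1b*, *Tuba1c*, *Tubb3*, *Tubb4b* and *Tubb5* were called lower under all 14 alternative settings.

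The composition of each family does not depend on library scaling. Shares were computed per exonic length within each library and were not tested. An exact two-sided permutation test of 3 against 3 libraries cannot go below 0.1, and no other test was run on them. In the alpha family, *Tuba1a* made up 59.8% ± 0.460 at D0 and 51.5% ± 0.205 at D5 (SD, n = 3). *Tuba1b* went from 28.2% ± 0.189 to 34.0% ± 1.24 and *Tuba1c* from 9.05% ± 0.284 to 5.93% ± 0.492. *Tuba4a* went from 2.95% ± 0.0976 to 8.62% ± 0.598. The order of the alpha genes was *Tuba1a*, *Tuba1b*, *Tuba1c* and *Tuba4a* at D0, and at D5 *Tuba4a* had passed *Tuba1c*. With the 50-base stretches found in no other gene as length *Tuba4a* stayed last at D5, at 2.63% against 4.02% for *Tuba1c*.

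The beta family changed its leading isotype. *Tubb5* made up 39.5%, 40.4% and 40.9% of beta tubulin mRNA in the D0 libraries and 9.84%, 10.1% and 9.82% in the D5 libraries. *Tubb6* made up 9.35%, 9.30% and 8.96% at D0 and 32.6%, 34.3% and 32.9% at D5. With exonic length the leading place thus passed from *Tubb5* to *Tubb6*, and each group was tight.

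*Tubb2a* went from 15.4% ± 0.401 to 29.6% ± 0.645 and *Tubb2b* from 15.7% ± 0.472 to 19.9% ± 0.385. At D0 this pair lay within their spread of each other with exonic length, but *Tubb2a* was lower with coding length (9.69% against 14.1%) and higher with unique 50-base stretches (24.1% against 19.3%). *Tubb3* went from 11.3% ± 0.206 to 0.386% ± 0.0147, the smallest share of the 6, and *Tubb4b* from 8.26% ± 0.148 to 6.91% ± 0.287. With coding length *Tubb4b* barely moved, from 6.75% to 6.49%. The lead of *Tubb6* at D5 depends on the length used. With the number of 50-base stretches found in no other gene as length, *Tubb2a* held 41.0% and *Tubb6* 23.0%, and with coding length *Tubb6* held 36.3% and *Tubb2a* 21.5%. *Tubb5* led at D0 under each of the 3 lengths.

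**Figure D3:**
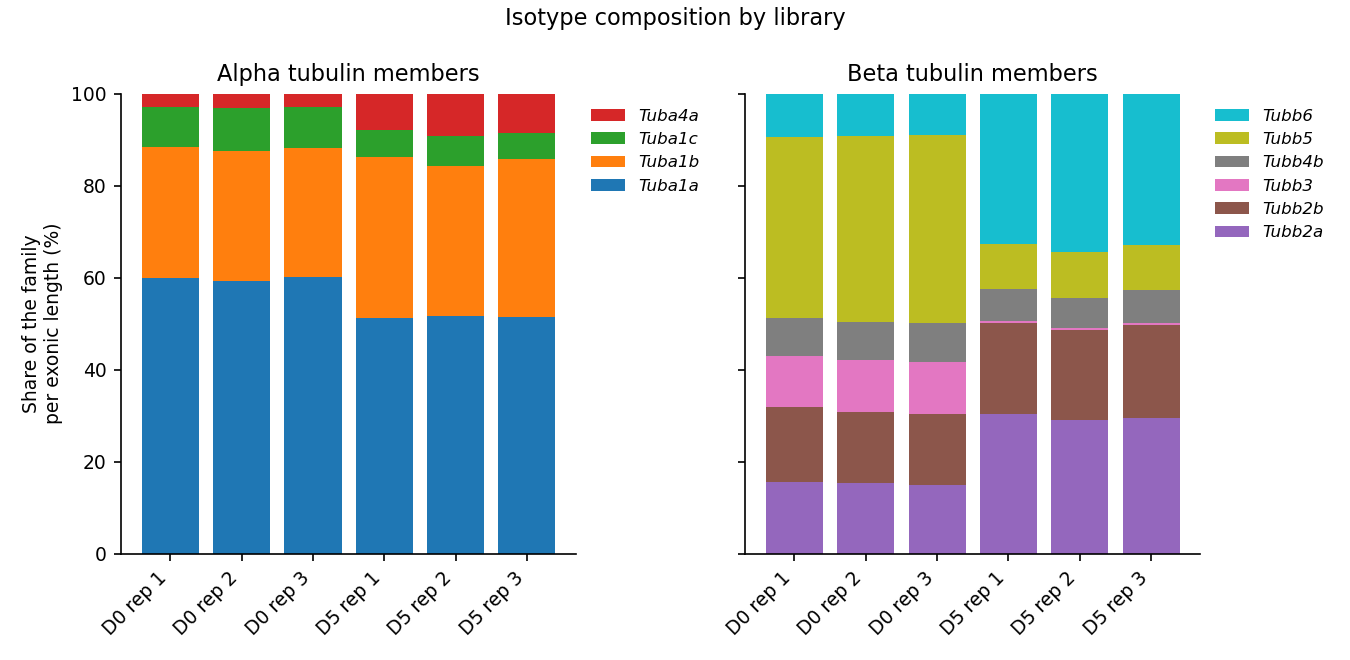
Share of each isotype in the alpha family (left) and beta family (right), in percent per exonic length, stacked for each of the 6 libraries. *Tubb5* shrinks from about 40.2% to 9.91% and *Tubb6* grows from 9.20% to 33.3%, and the replicates of a day look alike.

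Start regions and upstream sequences were read next. Cells tune tubulin mRNA by autoregulation, in which TTC5 binds the first residues of a nascent tubulin and leads to decay of its mRNA. The first 30 coding bases are shown, with the 12 that encode those residues in capitals, for the 2 beta genes with the largest falls.
Tubb3: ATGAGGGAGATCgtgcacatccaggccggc
Tubb5: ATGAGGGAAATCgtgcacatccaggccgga
The 4 alpha genes had 2 different forms of the first 12 bases and the 6 beta genes had 5. *Tubb4b* had the same 12 bases as *Tubb3*. The forms of *Tubb3* and *Tubb5* differ in bases but encode the same residues. The part of the start sequence in the isotype levels was not tested.

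RefSeq promoter entries (GRCm38.p6) matched 8 of the 10 isotypes, without *Tubb2b* and *Tubb6*. The 250 bases before the RefSeq start were searched on both strands for 7 motifs, none of which lies within another. The CCAAT box was found in 5 of the 8 (*Tuba1a*, *Tuba1c*, *Tubb3*, *Tubb4b* and *Tubb5*) and in 33.8% of all 32851 promoters. The matches in *Tuba1a* and *Tubb3* lay inside exons that GENCODE annotates upstream of the RefSeq start. The GC box GGGCGG was found in 6 of the 8, in all but *Tuba1c* and *Tubb5*, and in 32.7% of all promoters. In *Tuba1a* its match lay inside an annotated exon. So did a match in *Tuba1b* and in *Tubb3*, each of which also held a match outside. The E-box CAGCTG was found in *Tuba1b* alone of the 8 and in 4271 of all promoters, and its match lay inside an annotated exon. The CHR element TTTGAA was found in *Tubb4b* alone of the 8 and in 5252 of all promoters. The TATA box TATAAA was found in *Tubb2a* alone of the 8 and in 4063 of all promoters. The E2F form TTTGGCGC was in none of the 8 and in 0.417% of all promoters. The other E2F form, TTTCCCGC, was in none of the 8 and in 0.895% of all promoters. The 2 promoters with more than 1 CCAAT are shown, of genes that fell, with matches on either strand in capitals. The first is chr2:25224703-25224952 and the second chr17:35838307-35838551, both on the minus strand and printed up to the first annotated exon.
Tubb4b: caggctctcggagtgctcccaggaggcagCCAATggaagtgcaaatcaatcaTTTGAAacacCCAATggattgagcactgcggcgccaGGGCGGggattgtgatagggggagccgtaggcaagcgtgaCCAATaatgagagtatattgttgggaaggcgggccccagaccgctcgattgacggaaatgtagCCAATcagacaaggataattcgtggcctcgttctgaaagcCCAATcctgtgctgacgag
Tubb5: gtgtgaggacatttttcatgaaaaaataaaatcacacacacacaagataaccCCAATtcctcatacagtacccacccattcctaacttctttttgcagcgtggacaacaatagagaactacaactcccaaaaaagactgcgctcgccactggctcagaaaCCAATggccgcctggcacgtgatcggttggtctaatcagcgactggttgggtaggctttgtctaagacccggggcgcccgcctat
The first holds CCAAT 5 times and the second 2 times.

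The genes most like *Tubb6* and *Tubb3* over the 6 libraries were found by the root mean square difference of centred log2 CPM among 11315 genes. For *Tubb6* these were *Psmc3*, a proteasome ATPase (0.0169), *Cavin2*, a caveolar coat gene (0.0214), and *Abhd4* (0.0242). *Psmc3* went from 274 ± 8.79 to 563 ± 24.2 CPM. For *Tubb3* they were *Mybl2*, a cell cycle transcription factor (0.114), *Hmmr*, a spindle protein (0.117), and the histone gene *Hist1h2ag* (0.124). *Hmmr* went from 110 ± 1.68 to 2.38 ± 0.316 CPM. With 2 groups this measure mainly matches the size of the change.

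Of the 10 other tubulin genes, 5 held at most 3 counts in every library: the testis genes *Tuba3a* and *Tuba3b*, *Tubal3*, *Tuba8* and the platelet isotype *Tubb1*. *Tubg2* held 0 to 6 counts and was not tested. *Tubb4a*, a brain isotype, held 14, 16 and 26 counts at D0 and 2, 6 and 0 at D5 and was called lower (log2 fold change -2.09, SE 0.529). The gene did not pass the filter on low counts, and so was not tested, without D0 replicate 2, without D0 replicate 3 or with at least 10 counts asked of every library. Where it was tested without 1 library it was called lower, and the value ran from -3.43 (without D5 replicate 2) to -1.52 (without D5 replicate 3).

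The others serve centrosomes. *Tubg1*, the gamma tubulin that nucleates microtubules, went from 53.3 ± 0.346 to 20.6 ± 1.43 CPM (log2 fold change -1.37, SE 0.050). The epsilon tubulin *Tube1* fell more, from 15.8 ± 0.398 to 2.05 ± 0.113 CPM (-2.95, SE 0.098). The delta tubulin *Tubd1* was higher at D5, at 13.9 ± 1.87 CPM against 8.72 ± 0.403 CPM (0.67, SE 0.083), a direction that did not hold without scaling (-0.0083).

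The lists of genes that act on tubulin are read beside all genes tested, of which 42.2% were higher and 40.8% lower. Without library scaling the median of all genes was -0.68 and 76.6% of all calls were lower, so counts without scaling are set against that. Newly made tubulin is folded by prefoldin, the CCT chaperonin and the tubulin cofactors. Of 21 such genes, 6 were called higher, 9 lower and 6 neither, with a median log2 fold change of -0.06, and without library scaling 2 were higher and 18 lower. The cofactors *Tbcc* (0.93) and *Tbcel* (0.73), the prefoldin subunit *Pfdn5* (0.88) and the cofactor partner *Arl2* (0.35) had the largest rises. *Pfdn4* (-0.88), the chaperonin subunits *Cct2* (-0.77) and *Cct7* (-0.56) and the prefoldin subunit *Vbp1* (-0.50) had the largest falls.

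Of 24 enzymes that modify tubulin, 18 were tested, with 6 higher, 8 lower and 4 not called (median log2 fold change -0.06), or 2 higher and 14 lower without library scaling. The vasohibins, which remove the C-terminal tyrosine, fell and their partner rose: *Vash1* went from 43.5 ± 1.30 to 7.16 ± 0.395 CPM (-2.60) and *Vash2* from 111 ± 3.04 to 37.5 ± 0.734 CPM (-1.56), while the partner *Svbp* went from 15.2 ± 0.978 to 43.3 ± 3.68 CPM (1.51). The ligase *Ttl*, which puts the tyrosine back, was not called (0.10, adjusted p = 0.051 by edgeR's test with Benjamini-Hochberg adjustment). The polyglutamylase *Ttll11* (1.84), the deacetylase *Sirt2* (0.76) and the deglutamylase *Agbl3* (0.34) rose, and the polyglutamylase *Ttll7* (-0.85) and the glycylase *Ttll3* (-0.83) fell. The call of *Agbl3* was lost without D5 replicate 3 (0.23).

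Of the microtubule gene lists, that of microtubule-binding proteins held the 2 largest rises. Of 36, 30 were tested, with 15 higher and 13 lower (median log2 fold change 0.05), or 10 higher and 20 lower without library scaling. The doublecortin-like kinase gene *Dclk1* held 410, 456 and 404 counts at D0 and 23610, 23428 and 23645 counts at D5, which is 10.6 ± 0.500 against 946 ± 6.09 CPM (log2 fold change 6.48, SE 0.044). Its groups were far apart. *Mapt*, which encodes tau, went from 0.435 ± 0.0559 to 11.96 ± 1.46 CPM (4.77), and *Mtus1* (2.08) and the ubiquitin ligase gene *Mid1* (1.90) rose as well. *Tppp3* (-2.39), the end-binding gene *Mapre2* (-1.05), the polymerase *Ckap5* (-0.95) and *Map9* (-0.77) fell.

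Destabilizing and severing proteins mostly fell. Of 14, 13 were tested, with 4 higher and 9 lower (median log2 fold change -0.97), or 1 higher and 12 lower without library scaling. *Stmn4*, a stathmin that sequesters tubulin dimers, held 5665, 5963 and 5625 counts at D0 and 25, 19 and 26 counts at D5 (log2 fold change -7.26, SE 0.079). *Stmn1* went from 173 ± 4.01 to 10.4 ± 0.674 CPM (-4.06), the mitotic depolymerase *Kif2c* from 79.4 ± 2.48 to 1.71 ± 0.437 CPM (-5.53) and *Fignl1* from 59.1 ± 2.78 to 2.60 ± 0.511 CPM (-4.51). *Stmn2* was the clear exception (3.22), and *Katnbl1* (0.39), *Spast* (0.26) and *Katna1* (0.16) rose slightly.

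Motors carry cargo along microtubules. Of 23 genes for kinesin-1, dynein and dynactin, 14 were higher, 6 lower and 3 not called (median log2 fold change 0.20). Without library scaling 3 were higher and 18 lower, in the setting where most calls of all genes were lower. The light chains *Klc1* (0.92), *Klc4* (0.62) and *Klc2* (0.61) and the heavy chain *Kif5b*, from 581 ± 10.1 to 843 ± 26.7 CPM (0.54), rose. The heavy chain *Kif5c* (-1.16), the dynein intermediate chain *Dync1i1* (-1.67), *Dctn4* (-0.50) and the dynein heavy chain *Dync1h1* (-0.41) fell.

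Factors of tubulin mRNA autoregulation stayed close to the median of all genes. Of 7, 3 were called higher and 2 lower, with a median log2 fold change of -0.06, and without library scaling all 7 were lower. *Ttc5*, which reads the nascent chain, stood at 28.6 ± 0.650 CPM at D0 and 27.4 ± 3.10 CPM at D5 and was not called (-0.06, adjusted p = 0.33 by edgeR's test with Benjamini-Hochberg adjustment). Its adaptor *Scaper* (0.14) and the CCR4-NOT subunits *Cnot7* (0.14), *Cnot1* (-0.10) and *Cnot10* (-0.26) moved by at most 0.26 on the log2 scale.

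Several of the small rises in these lists changed sign under another scaling. With no scaling this held for *Arl2*, *Agbl3*, *Katnbl1*, *Spast*, *Katna1*, *Kif5b*, *Klc2*, *Klc4*, *Scaper* and *Cnot7*. With ERCC scaling it held for the same genes other than *Klc2* and *Klc4*. Of these, *Klc2* and *Klc4* were not called without scaling, and with ERCC scaling none was called. The falls of the 7 lower isotypes kept their sign under both. Other named genes kept their direction but lost their call. With ERCC scaling these were *Tbcc* (0.40), *Tbcel* (0.15), *Pfdn5* (0.31), *Svbp* (0.99), *Sirt2* (0.18), *Klc1* (0.36), *Klc2* (0.045), *Klc4* (0.049) and *Tubd1* (0.17) among the rises. Among the falls they were *Cct7* (-1.11), *Vbp1* (-1.03), *Dctn4* (-1.05), *Dync1h1* (-0.98), *Cnot1* (-0.66) and *Cnot10* (-0.79). Without scaling the calls of *Sirt2* (0.074) and *Tbcel* (0.043) were lost. With total counts and with no filter on low counts, those of *Katna1*, *Scaper* and *Cnot7* were lost.

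Markers of other cells were low. The summed level of 8 platelet and blood cell markers was 4.99 to 5.33 CPM at D0 and 5.09 to 6.24 CPM at D5, with *Adgre1* at 0 in every library and *Ptprc* and *Pf4* each at 1 count in all. Of the 3 that were tested, 2 rose and 1 fell. The summed level of 5 endothelial markers was 3.31 to 3.59 CPM at D0 and 0.517 to 0.884 CPM at D5, with *Emcn* at 0 in every library, and both genes tested fell. That of 5 adipocyte markers was at most 0.285 CPM in any library, with *Lep* and *Cidec* at 0 throughout. Their part in the isotype levels was not tested.

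**Figure D4:**
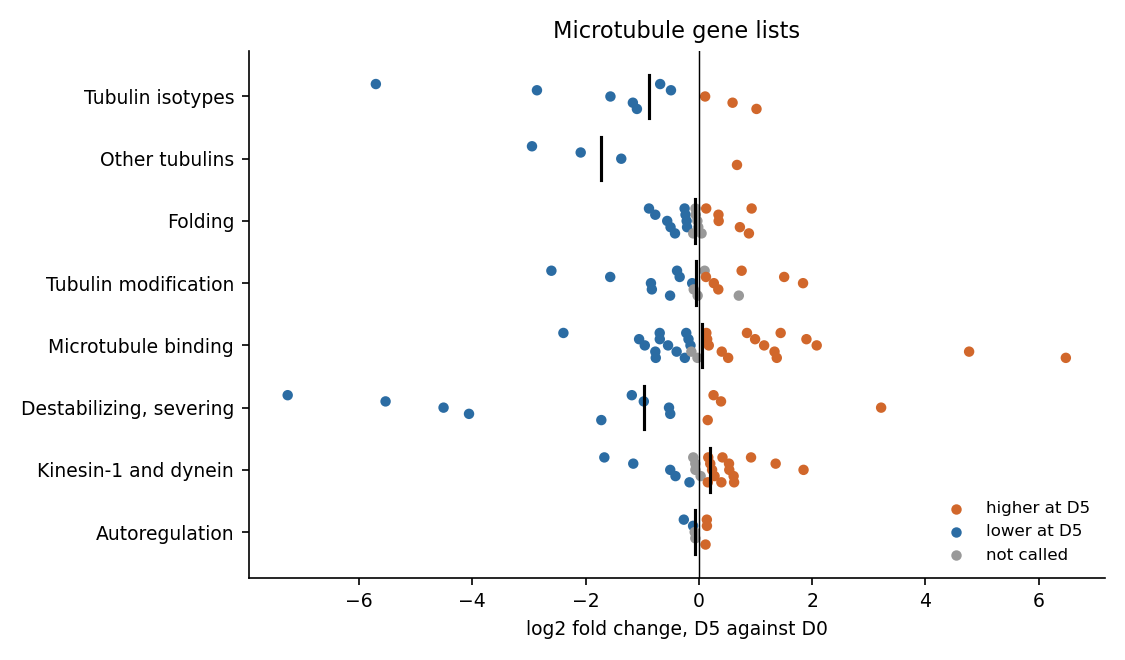
Log2 fold change (D5 against D0) of the tested genes of each list, with called genes in orange (higher) or blue (lower), the others in grey, and the list median as a black line. The isotypes (median -0.89) and the destabilizing and severing genes (-0.97) lie mostly below 0, while folding genes centre near -0.06 and motors near 0.20.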

How the data were processed

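RNA-seq was done on 3 D0 and 3 D5 samples. The authors deposited raw read counts per gene, 1 library per file, made with featureCounts on GRCm38. The labels name Tophat2 2.0.0 and the study's methods name HISAT2 as aligner, and the strand setting, annotation release and handling of reads with several matches are not given in the sources used here. The deposited counts also held 92 ERCC spike-in rows (0.720% to 2.09% of counts) and 1 nameless total row, none of which entered a library size or a test. Of the gene rows, 99.79% matched GENCODE M21 by Ensembl ID.

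Counts were fitted with edgeR 4.0.16 (TMM factors, filterByExpr, quasi-likelihood test) in R 4.3.3, with Benjamini-Hochberg adjustment over the 16290 genes tested and a threshold of 0.05. In data simulated for D5 against D0 with 200 changed genes, edgeR recovered 100% of those changed 2-fold and 100% of those changed 4-fold. The simulated data used the same dispersion for all genes and left all but those 200 unchanged, whereas 82.9% were called here. The simulation therefore does not check the scaling or the calls where most genes move. TPM used the exonic length of each gene. Alternatives were DESeq2 1.42.0, upper-quartile, total-count, no and ERCC scaling, other filters, libraries left out, a replicate block and other lengths for the shares. The 50-base length and the alternatives for the alpha to beta ratio were added after seeing the data. Coding sequences were aligned with Biopython 1.88. Libraries of a group differed beyond counting noise (chi-square per degree of freedom 2.72 to 4.57), so none was a copy. This does not show that they came from separate cultures, which the sample titles do not state.

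The isotypes and gene lists were chosen with earlier results of these data known. Named genes were the isotypes, other tubulins, markers, the 3 nearest genes to the isotypes with the largest rise and fall, and in each list up to 4 largest rises and 4 largest falls with an adjusted p under 0.05, a mean of at least 100 counts in a group and no overlap. *Ttl*, *Ttc5*, *Stk16* and *Gm49450* were named for their role or position after their values were seen. Some sequences are not reported here. Intervals and the limit of 3 counts cover counting error only.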

Additional observations from a re-analysis of the deposited data

How the results depend on the processing

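Of 140 isotype fold changes under 14 alternatives, 131 kept their direction and call, 6 lost the call and 3 changed sign. Of the sign changes, only that of *Tubb2a* without scaling was called. *Tuba4a* was -0.087 without scaling and 0.056 with ERCC scaling. *Tubb2a* was 0.027 with total counts, -0.57 without scaling, -0.45 with ERCC scaling and 0.058 with no filter, and ranged from 0.063 (without D0 replicate 3) to 0.12 when each library was left out. With ERCC scaling *Tubb2b* was -1.06, *Tubb6* 0.47 and the sum of *Tubb2a* and *Tubb2b* -0.78, all without a call; the SE of that sum was 0.514, the spike-in share ranged from 0.720% to 2.09% among D5 libraries, and 5560 genes in all were called. Isotypes called higher numbered 1 without scaling and 0 with ERCC scaling. Lower calls were 49.2% of all calls in the main analysis, 76.6% without scaling and 67.4% with ERCC scaling.

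Without scaling these changed sign and were called: *Agbl3* -0.34, *Arl2* -0.33, *Cnot7* -0.54, *Katna1* -0.53, *Katnbl1* -0.29, *Kif5b* -0.15, *Scaper* -0.54 and *Spast* -0.42. *Klc2* (-0.067), *Klc4* (-0.059) and *Tubd1* (-0.0083) changed sign without a call. With ERCC scaling these changed sign: *Agbl3* -0.31, *Arl2* -0.22, *Cnot7* -0.42, *Katna1* -0.42, *Katnbl1* -0.18, *Kif5b* -0.016, *Scaper* -0.44 and *Spast* -0.29. None of them was called.

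List calls shifted with scaling. Without it, higher and lower calls were 2 and 18 for folding, 2 and 14 for modification, 3 and 18 for motors and 0 and 7 for autoregulation. Microtubule binding had 10 higher and 20 lower calls, and higher calls 1 for destabilizing and severing and 0 for other tubulins. With ERCC scaling they were 0 and 2, 1 and 4, 0 and 2, and 0 and 0 in that order, 4 and 5 for microtubule binding, and higher calls were 1 for destabilizing and severing and 0 for other tubulins. With total counts folding had 14 lower calls and autoregulation 0 higher and 4 lower. With no filter autoregulation had 0 higher calls and other tubulins 2. Values without scaling include the difference in depth, with 36555048 to 40895840 gene counts at D0 and 25449759 to 25811300 at D5. The cause of the other shifts was not tested.

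Changes in share (percentage points, D5 minus D0) kept their sign under other lengths. With coding length they were -9.83 for *Tuba1a*, 4.21 for *Tuba1b*, -4.05 for *Tuba1c*, 9.67 for *Tuba4a*, 11.8 for *Tubb2a*, 6.45 for *Tubb2b*, -7.84 for *Tubb3*, -0.26 for *Tubb4b*, -37.7 for *Tubb5* and 27.6 for *Tubb6*. With unique 50-base stretches they were, in that order, -6.57, 6.64, -1.84, 1.77, 16.9, 2.31, -8.40, -2.68, -23.9 and 15.8. The ratio of alpha to beta changed by 0.063 with coding length and -0.44 with unique stretches, and from -0.065 to -0.048 with exonic length when each library was left out; these alternatives were chosen after seeing the data.

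With 3 libraries per day, the values cannot settle whether the replicate numbers of the labels pair the samples. The correlation of deviations was 0.00835, 0.131 and 0.0619 for same-numbered libraries. For differently numbered ones it ran from -0.102 to 0.0446. Libraries 2 and 3 of each day were closest to their own number, and library 1 was not. With the number as a replicate block 13558 genes were called, against 13510, and no isotype call changed (*Tubb2a* 0.11).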
